A study of Mus musculus with 6 samples.

Results

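The potassium channel genes were taken as every row of the gene table whose Ensembl identifier belongs, in the GRCm38 annotation, to a protein-coding gene with a symbol that starts with Kcna, Kcnb, Kcnc, Kcnd, Kcnh, Kcnj, Kcnk, Kcnma, Kcnmb, Kcnn, Kcnq or Kcnt. That gave 69 of the 26852 genes in the table, in 12 channel classes. The annotation holds 73 such genes, and Kcna10, Kcnk16, Kcnk18 and Kcnmb3 have no row. Embryonic mouse midbrain was dissected at E14.5, and RNA of 3 Lmx1b conditional knock-out (cKO) samples and 3 controls was sequenced. Each sample pooled embryos from different litters, on a C57Bl/6 background. The cKO embryos were Lmx1b fl/fl with Pitx3-Cre and the controls Lmx1b wt/wt with Pitx3-Cre. Cre is expressed from the Pitx3 locus, so embryos of both genotypes are heterozygous for Pitx3 and keep 1 working allele, and Lmx1b, a LIM homeobox factor of midbrain dopamine (mdDA) neurons, is removed only in post-mitotic Pitx3-positive cells. These are a small part of the dissected tissue, and in such bulk samples fewer cells of a type and less RNA per cell cannot be told apart. The comparison asks which of the channel genes differ between the genotypes.

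Potassium channels let potassium ions leave the cell and so hold the membrane near its resting potential, end action potentials and set firing rates. Voltage-gated (Kv) channels open on depolarization, inward rectifiers (Kir) and two-pore-domain (K2P) channels carry resting current, and BK, SK and IK channels answer to calcium. In adult mdDA neurons, A-type Kv4 channels and SK channels shape the slow pacemaker rhythm, and G-protein-gated Kir3 (GIRK) channels are opened by dopamine D2 autoreceptors. Glia take up potassium through Kir4.1, and pericytes and choroid plexus have Kir channels of their own.

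What unites the pore-forming members is the selectivity filter, the short loop that admits potassium and holds back sodium. A filter signature, Thr or Ser, then Val, Ile, Leu or Thr, then Gly, then Tyr, Phe or Leu, then Gly, was searched in the coding sequence of each of the 69 genes in GENCODE transcripts of GRCm38. It was found once in 51 members and at 2 places in each of the 12 K2P members, whose subunits carry a pair of pore loops. The 6 members without it are the accessory subunits Kcnab1, Kcnab2, Kcnab3, Kcnmb1, Kcnmb2 and Kcnmb4. The stretches below belong to 4 of the genes described in detail, from the Kir, K2P and Kv4 classes, and show a single loop beside a pair. Each is 30 coding bases, read 5′ to 3′ on the transcript strand, with the 15 bases of the signature in capitals.
Kcnj10: tcccagaccACCATCGGCTATGGCttccgc
Kcnj3: accgaggccACCATCGGCTATGGCtaccgc
Kcnk9, first pore loop: gtcatcacaACTATCGGATATGGAcatgct
Kcnk9, second pore loop: acattgactACTATAGGGTTCGGCgatttt
Kcnd1: accatgaccACACTTGGGTATGGAgatatg
The codons of Kcnj10, Kcnj3 and the first loop of Kcnk9 spell the same residues, and Kcnj10 and Kcnj3 share all 15 bases of the signature. The signature of Kcnd1 holds Leu, and that of the second loop of Kcnk9 holds Phe. The promoters were searched for TAATTA, a core that many homeodomain proteins can bind and that reads the same on both strands, in the 250 bases before the annotated start (RefSeq, GRCm38.p6). None of the 51 members with a promoter window held it, against 5.65% of all genes with a window, and this says only that these letters are not in those windows.

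The deposited values are group means of normalized counts. Whole read counts of each library were recovered from them for 26731 genes, all 69 channel genes among them, and the libraries are called a, b and c within each genotype because the means do not say which sample is which. Recovered reads ran from 25234526 to 30576072 per library. Lmx1b itself had a normalized count of 1257, 1401 and 1455 in cKO libraries a, b and c and 1368, 1352 and 1474 in control libraries a, b and c, so its total did not separate the genotypes (exact permutation test, two-sided, p = 0.8), and it gives no check of the labels in whole midbrain. The defining markers of mdDA neurons were present in every library, none at 0, with Th, which makes the dopamine precursor L-DOPA, at 733 to 778 in the cKO and 776 to 976 in the controls. Connective tissue varied most. The summed count of 7 bone and mesenchyme markers was 2326, 742 and 13997 in cKO a, b and c and 725 to 836 in the controls, and cKO c and a stand apart in that respect.

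Potassium channel transcripts spanned a wide range. The mean over all 6 libraries was as low as 0.156 normalized counts for Kcnj13, the Kir7.1 channel of choroid plexus, and 17 members had a mean above 1000. Levels of different genes are compared here as normalized counts per kilobase of exon. On that scale the A-type subunits Kcnd2 and Kcnd3 had 532 and 456, the Elk-type subunit Kcnh4 had 393 and the ERG subunit Kcnh2 had 358. These genes of neuronal excitability were among the most abundant, and the first Kir gene, Kcnj10, had 130 per kilobase. The ranges of Kcnd2 and Kcnd3 over the 6 libraries overlapped, as did those of Kcnh4 and Kcnh2, although in each of the 6 libraries Kcnd2 was above Kcnd3 and Kcnh4 above Kcnh2.

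**Figure D1:**
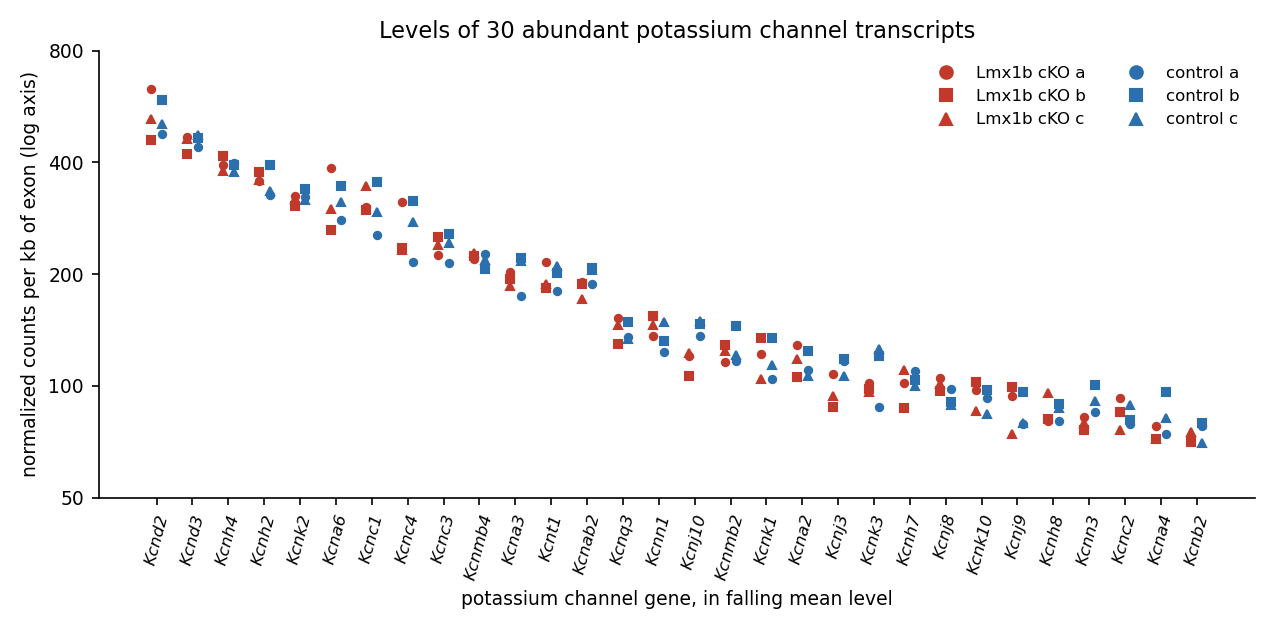
Normalized counts per kilobase of exon (log axis) of 30 abundant potassium channel transcripts, in falling order of the mean. Each symbol is 1 library, red for Lmx1b cKO and blue for control. Kcnd2 and Kcnd3 have means of 532 and 456, and in all genes shown but Kcnj10 and Kcnn3 the red and blue symbols overlap.

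No potassium channel gene passed the test across the whole table. With limma on voom-transformed counts, 0 of the 60 members with a mean of 10 or more normalized counts had a Benjamini-Hochberg adjusted p under 0.05, and the same held for 0 of all 17056 genes tested (0.0%), also with limma-trend. Without control a, 3 genes of the whole table passed, none of them a channel gene. At an unadjusted p under 0.05, 5 members were lower in the cKO, which is 8.33% of those tested against 1.61% of all genes. None was higher, against 1.16% of all genes. The 5 were Kcnj10, Kcnq5, Kcnn3, Kcnj3 and Kcnk9, and each had a limma adjusted p of 1.00. The count depended on single libraries. It was 2 without cKO b, 2 without cKO c, 2 without control b and 3 without control c, and without control b 1 member, Kcnc1, was higher. Kcnj10 and Kcnq5 kept an unadjusted p under 0.05 in all 6 fits that left out 1 library.

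Most channel genes differed little. The median log2 fold change of the 60 tested members, cKO over control, was 0.011, beside 0.00093 for all genes, with 29 members lower and 31 higher. For 48 of the 60, or 80.0%, the fold change lay within 0.2 of zero on the log2 scale, and for all genes that share was 79.6%. In 4 members all 3 cKO libraries lay below all 3 control libraries, which is 6.67% against 3.71% of all genes. In 1 member they lay above, which is 1.67% against 3.88% of all genes. The 4 were Kcnj10, Kcnj12, Kcnn3 and Kcnq5, and the 1 was Kcnd1. With 3 libraries a group the exact permutation test cannot give a p below 0.1. The other 9 members, Kcna7, Kcnj1, Kcnj4, Kcnj13, Kcnj15, Kcnk7, Kcnk15, Kcnmb1 and Kcnn4, had means of 0.156 to 6.25, with Kcnk12 at 12.9 and Kcnk5 at 13.4 just inside the minimum of 10.

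**Figure D2:**
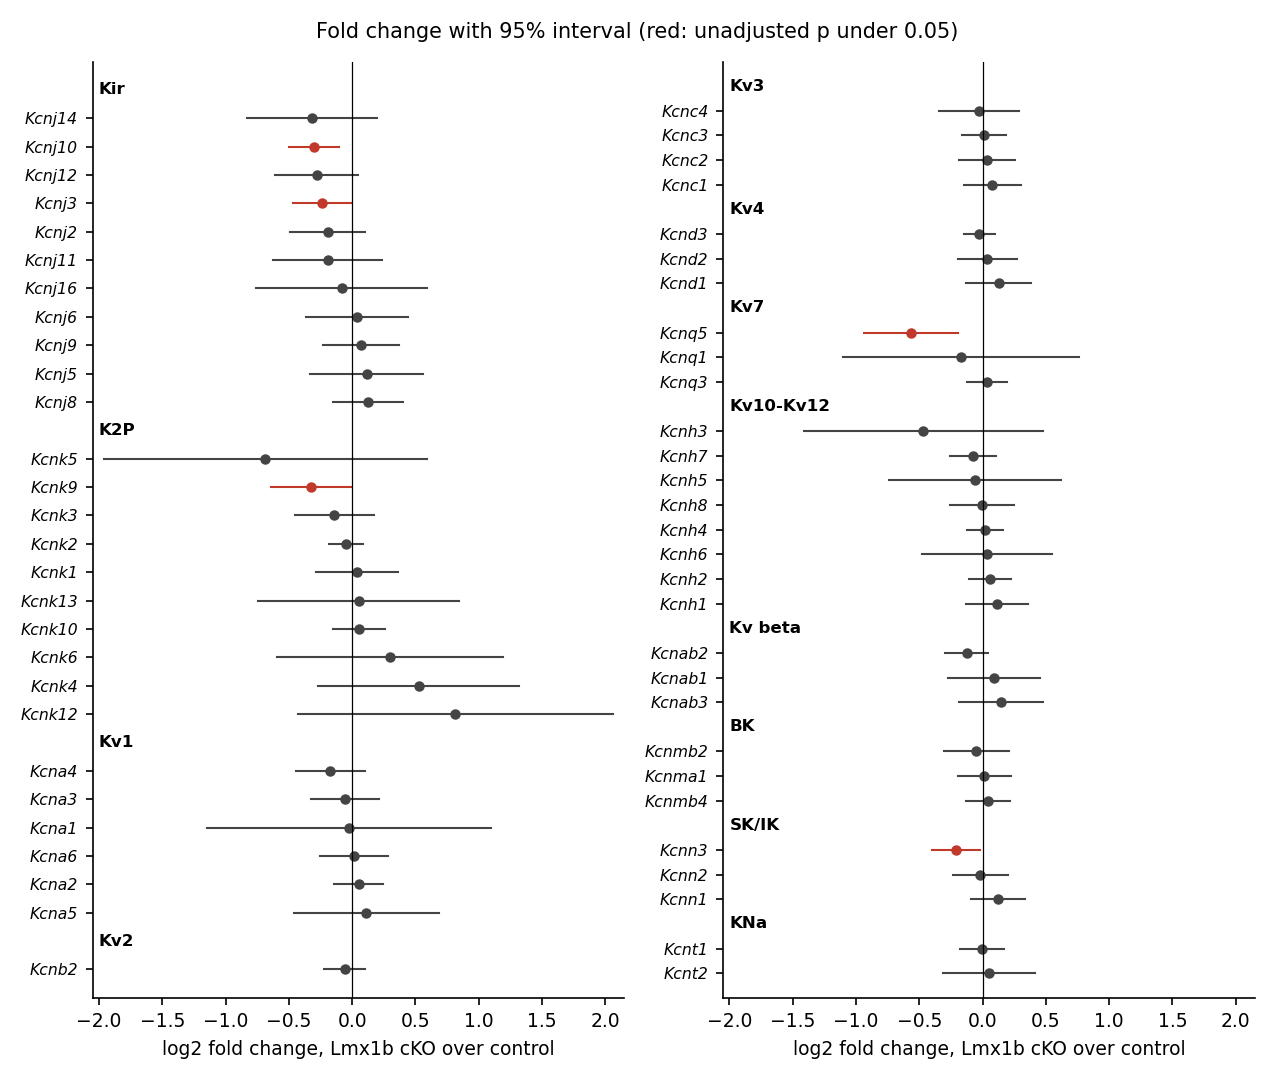
Log2 fold change of tested potassium channel genes, cKO over control, by channel class. Points are limma estimates, lines their 95% intervals, and the 5 genes with an unadjusted p under 0.05 are red. All 5 lie left of zero, and every other interval spans it.

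The inward rectifiers were the class with the lowest median. Of 15 Kir genes 11 were tested, 7 lower and 4 higher, with a median log2 fold change of -0.19. In the other 11 classes the median lay between -0.055 and 0.092. The summed level of the class was 692, 624 and 625 normalized counts per kilobase in cKO a, b and c, and 696, 729 and 705 in the controls. All 3 cKO libraries were thus below all 3 controls, cKO a by a small margin. Kcnj10, the most abundant Kir gene, held 19.2% of the class level. It had 120, 106 and 123 per kilobase in cKO a, b and c and 136, 147 and 150 in control a, b and c. Without Kcnj10, cKO a would lie above controls a and c, and the groups would overlap. Class sums were not tested. The ratio of the means was 0.911, and 0.879 without cKO a. The Kir median was -0.087 without cKO b, -0.097 without cKO c and -0.082 with no minimum mean, which adds the 4 Kir genes under 10 normalized counts.

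**Figure D3:**
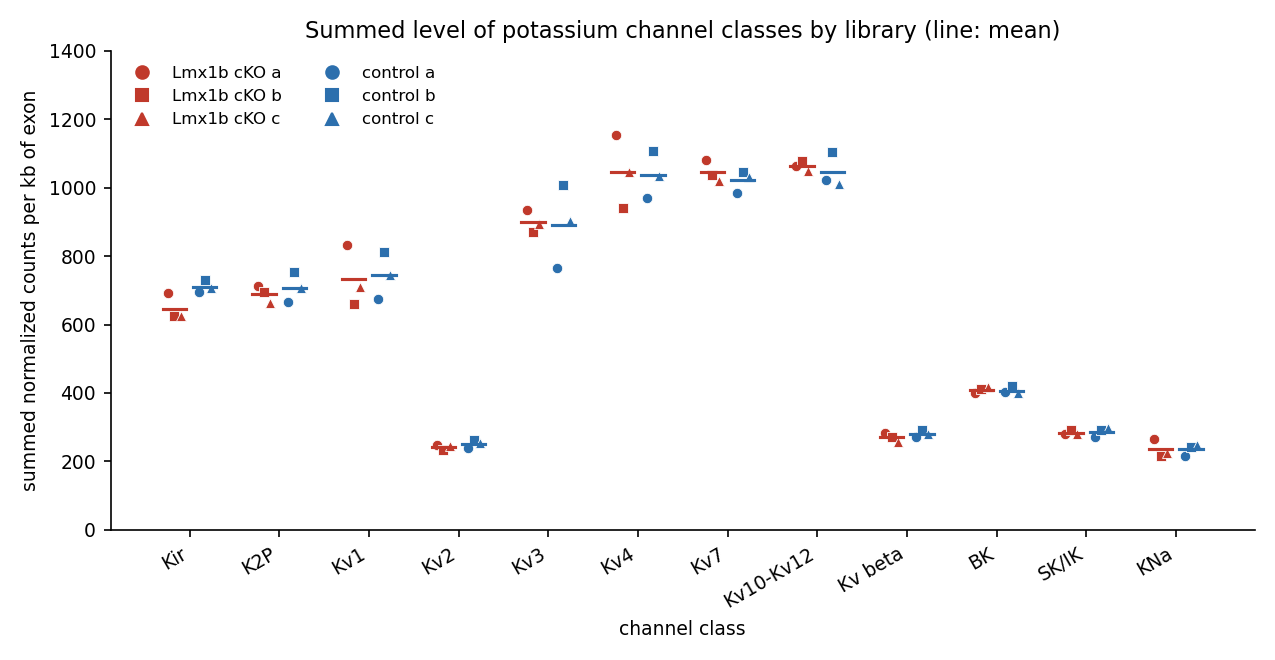
Summed normalized counts per kilobase of exon of the 12 channel classes in each library. Symbols are libraries, red for cKO and blue for control, and lines are group means. Kir is the class in which red and blue do not overlap, with means of 647 and 710.2. Without Kcnj10 the Kir groups would overlap.

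Kcnj10 (ENSMUSG00000044708, chr1:172341210-172374085, + strand, GRCm38) encodes Kir4.1, the potassium uptake channel of astrocytes and other glia. Its normalized count was 651, 575 and 663 in cKO a, b and c and 736, 793 and 810.0 in control a, b and c. The 2 genotypes did not overlap, and cKO b was the lowest of the 6 libraries. On the log2 scale it differed by -0.30, cKO over control (standard error, SE, 0.090, 95% interval -0.50 to -0.11), a level 19.0% lower in the cKO. The unadjusted limma p was 0.00578, and without single libraries the fold change ran from -0.35 to -0.24. Markers of radial glia and astrocytes also had lower group means. All 6 markers tested were lower in the cKO, where 49.6% of all genes were, and 4 of them had an unadjusted p under 0.05, against 1.61% of all genes. None passed the adjusted test. Their summed count was 26486, 29120 and 30043 in cKO a, b and c and 32058, 30170 and 31237 in control a, b and c. The groups did not overlap. Within the genotypes this sum was lowest in cKO a and control b, and Kcnj10 in cKO b and control a. Aldh1l1, an enzyme used as an astrocyte marker, was at 2448 ± 195 in the cKO and 2836 ± 13.4 in the controls (SD, n = 3). By library it was 2263, 2430 and 2651 in cKO a, b and c and 2822, 2836 and 2849 in control a, b and c. The part of these markers in the Kcnj10 result was not tested. Kcnj16, the Kir5.1 partner of Kir4.1, was at 47.8 ± 16.2 in the cKO and 49.6 ± 6.97 in the controls, with overlapping libraries.

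Kcnj12 encodes Kir2.2, a strong inward rectifier. It had 197, 179 and 159 normalized counts in cKO a, b and c and 211, 234 and 204 in the controls. The groups did not overlap, but the gap between cKO a and control c was small. Its fold change was -0.28 on the log2 scale (SE 0.15, 95% interval -0.61 to 0.048). Kcnj2, the related Kir2.1, overlapped between the genotypes, at 338 ± 53.4 and 387 ± 33.9.

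Of the GIRK subunits, Kcnj3 had an unadjusted p under 0.05, and whether the subunits differ from each other was not tested. Kcnj3 (ENSMUSG00000026824, chr2:55435970-55598145, + strand) encodes GIRK1, which joins the other subunits in a heteromer. It was at 563, 458 and 489 in cKO a, b and c and at 610.5, 617 and 555 in the controls. Control c lay below cKO a, so the groups overlapped. A log2 fold change of -0.24 (SE 0.10, 95% interval -0.47 to -0.012) came with an unadjusted limma p of 0.0406. That p passed 0.05 in 2 of the 6 fits without 1 library, and rose to 0.151 without cKO b, 0.0983 without cKO c, 0.0914 without control a and 0.104 without control b. Of the exon bases of Kcnj3, 31.1% are shared with Gm26794 on the opposite strand, and Gm26794 was at 53.9 to 87.7 in the cKO and 59.3 to 82.1 in the controls.

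Kcnj6 encodes GIRK2, the subunit best known in mdDA neurons. Its level was 188, 167 and 202 in cKO a, b and c and 145, 224 and 185 in the controls, the lowest and the highest both being controls. Its log2 fold change of 0.038 had a 95% interval of -0.36 to 0.44. Kcnj9 (GIRK3) was at 382 ± 55.5 and 364 ± 43.0, and Kcnj5 (GIRK4) at 109.6 ± 12.8 and 102 ± 15.3, in the cKO and the controls. Both overlapped. Dopamine neuron markers are the background to these values. Of 12 such markers 10 were lower in the cKO, 4 with an unadjusted p under 0.05, against 1.61% of all genes, and none passed the adjusted test. Their summed count was 11952 to 12594 in the cKO and 12568 to 14742 in the controls, so the groups overlapped. The list holds En1, a gene the study itself picked out from these libraries, and so is not independent of them. En1 is among the 4, and without it 9 of 11 were lower, 3 at that p. Drd2, the D2 receptor that opens GIRK channels, was at 229 ± 7.03 in the cKO and 189 ± 9.30 in the controls. Every cKO library was above every control, as in 3.88% of all genes, with an unadjusted limma p of 0.063. Ddc, Pitx3, Nr4a2, Slc10a4 and En1 went the other way. In each of them every cKO library was below every control, as in 3.71% of all genes.

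The remaining Kir genes include the pore subunits of ATP-sensitive channels. Kcnj11 (Kir6.2), the neuronal form, was at 105, 134 and 95.2 in cKO a, b and c and 127, 113 and 140 in the controls. The log2 fold change of -0.19 had a 95% interval of -0.63 to 0.24. Kcnj8 (Kir6.1), a pericyte gene, was at 257 ± 9.89 in the cKO and 235 ± 12.6 in the controls, with a log2 fold change of 0.13 (95% interval -0.15 to 0.40). The 7 pericyte markers, Kcnj8 included, summed to 8962 to 9213 in the cKO and 8821 to 9245 in the controls. Kcnj13 was at 0.937 in cKO a, which is a single read, and at 0 in the other 5 libraries. The 7 choroid plexus markers, Kcnj13 included, summed to 2035 to 2154 in the cKO and 1913 to 2091 in the controls. Most of that sum was Otx2, also a midbrain patterning gene, at 1801 ± 63.4 and 1715 ± 97.9. Ttr, the defining choroid plexus transcript, was at 6.34 in cKO b and at 0 in the other 5 libraries.

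The K2P class showed no shared direction, with 4 lower and 6 higher of 10 tested. Kcnk9 (ENSMUSG00000036760, chr15:72501089-72546340, - strand) encodes TASK-3, an acid-sensitive background channel. It had 344, 280.0 and 311 normalized counts in cKO a, b and c and 330.0, 413 and 448 in the controls. Controls b and c were above every cKO library, while control a lay below cKO a. Its log2 fold change was -0.33 (SE 0.14, 95% interval -0.64 to -0.013), with an unadjusted limma p of 0.0427. That p was 0.146 without cKO b, 0.0818 without cKO c, 0.109 without control b and 0.151 without control c, so that 2 of the 6 fits passed. Kcnk3, the closely related TASK-1 with which TASK-3 can pair, was at 404, 391 and 383 in the cKO and at 349, 480.3 and 500.1 in the controls. Control a lay below all 3 cKO libraries, and controls b and c lay above them. Its log2 fold change was -0.14 (95% interval -0.45 to 0.17), and without control a it was -0.32 with an unadjusted limma p of 0.0155. Kcnk2 (TREK-1), a stretch- and lipid-sensitive channel and the most abundant K2P gene, was at 1560 ± 49.4 in the cKO and 1611 ± 54.8 in the controls. Kcnk1 (TWIK-1) was at 269 ± 33.8 and 263 ± 34.7.

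Among the Kv7 genes, Kcnq5 (ENSMUSG00000028033, chr1:21398403-21961942, - strand) had the largest difference of the 5 genes with an unadjusted p under 0.05. It encodes an M-current subunit. Its normalized count was 153, 164 and 143 in cKO a, b and c and 257, 237 and 186 in control a, b and c. No cKO library reached the lowest control, and control c lay nearest to them. The difference on the log2 scale was -0.57 (SE 0.17, 95% interval -0.94 to -0.19), a level 32.5% lower in the cKO, with an unadjusted limma p of 0.00625. It ran from -0.69 to -0.47 without single libraries, with p up to 0.0267. Kcnq5 had 24.7 normalized counts per kilobase.

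Kcnq3, another M-current subunit, was at 2099 ± 169 in the cKO and 2052 ± 120 in the controls, with overlapping libraries. The ratio of the summed Kv7 levels, cKO over control, was 1.02.

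**Figure D4:**
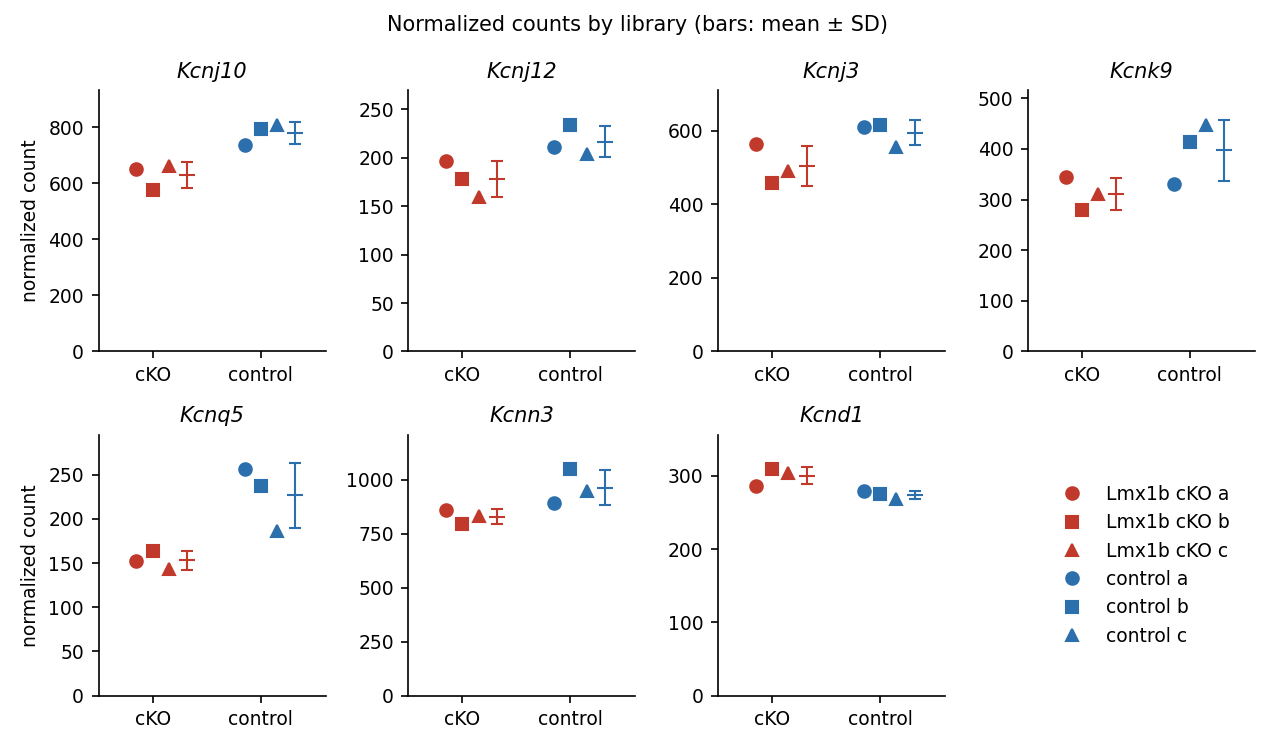
Normalized counts of Kcnj10, Kcnj12, Kcnj3, Kcnk9, Kcnq5, Kcnn3 and Kcnd1 in each library, each axis starting at 0. Symbols are libraries and bars give the mean ± SD (n = 3). In Kcnj10, Kcnj12, Kcnq5 and Kcnn3 every red symbol lies below every blue one, and in Kcnd1 every red symbol lies above.

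The A-type Kv4 genes were nearly level. Kcnd3, the Kv4.3 subunit that paces mdDA neurons, was at 4488, 4043 and 4443 in cKO a, b and c and 4212, 4472 and 4549 in the controls. Its log2 fold change was -0.027 (95% interval -0.15 to 0.096). Kcnd2 (Kv4.2) had a log2 fold change of 0.036 (95% interval -0.20 to 0.27). Kcnd1, a minor Kv4 gene, was at 287, 310 and 304 in the cKO and 279.6, 275 and 268 in the controls. Every cKO library was above every control, with cKO a and control a close together. Its log2 fold change was 0.13 (SE 0.12, 95% interval -0.13 to 0.38), and the unadjusted limma p was 0.302.

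The other Kv classes held abundant genes with overlapping groups throughout. Kcnb2, a Kv2 delayed rectifier, was at 1105 ± 33.1 in the cKO and 1149.5 ± 77.2 in the controls. Kcna2, an axonal Kv1 subunit, was at 1401 ± 141 and 1352 ± 111, and its partner Kcna1 at 22.9 ± 6.83 and 25.2 ± 14.1. Kcna5 (Kv1.5) was at 72.8 ± 13.9 and 67.6 ± 13.6. The most abundant Kv1 gene per kilobase was Kcna6, at 1880 ± 378 and 1861 ± 193, with 39.6% of its exon bases shared with an opposite-strand gene. Kcnc1, the Kv3.1 channel of fast-spiking neurons, was at 2984 ± 256 and 2849 ± 472. The cKO and the controls had 1766 ± 54.2 and 1703 ± 175 for Kcnh2, 1567 ± 72.2 and 1544 ± 46.1 for Kcnh4, and 1518 ± 178 and 1591 ± 71.1 for Kcnh7, a further ERG subunit. Kcnab2, a beta subunit that binds Kv1 channels, was at 1022 ± 56.8 and 1119 ± 57.8.

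Among the calcium-activated channels, 1 SK gene had an unadjusted p under 0.05, and none passed the adjusted test. Kcnn3 (ENSMUSG00000000794, chr3:89520164-89675132, + strand) encodes SK3, the small-conductance channel of adult mdDA neurons. It was at 861, 796 and 830.2 in cKO a, b and c and 890.1, 1050.0 and 949 in the controls. The groups did not overlap, though cKO a and control a lay close together. The log2 fold change was -0.21 (SE 0.085, 95% interval -0.40 to -0.023), a level 13.5% lower, with an unadjusted limma p of 0.0305. That p was 0.0922 without cKO b, 0.0608 without cKO c, 0.137 without control b and 0.0563 without control c, so that 2 of the 6 fits passed. Group means of the mdDA marker sums given with the GIRK genes and of the glial sums given with Kcnj10 were lower in the cKO. The mdDA sums overlapped between the genotypes. The part of either in this result, or in those of Kcnj3, Kcnk9 and Kcnq5, was not tested.

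The other calcium- or sodium-activated genes overlapped. Kcnn1 (SK1), the most abundant of the SK genes per kilobase, was at 668 ± 41.1 in the cKO and 618 ± 57.9 in the controls, and Kcnn2 (SK2) at 438 ± 27.1 and 443 ± 11.1. Kcnma1, the pore of the BK channel, was at 1033 ± 80.8 and 1027 ± 124. Its neuronal beta subunit Kcnmb4 was at 744 ± 12.4 and 722 ± 35.5. The sodium-activated Kcnt1 was at 1859 ± 161 and 1875 ± 144, and Kcnt2 at 273 ± 62.4 and 263 ± 21.4.

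The level of the channel genes as a group varied among libraries of the same genotype. The median deviation of the 60 members from their own mean over the 6 libraries, on the log2 scale with 1 added to each count, was 0.043, -0.074 and -0.056 in cKO a, b and c and -0.060, 0.099 and 0.0041 in control a, b and c. Over all genes tested it was between 0.0019 and 0.0036 in every library. Of the 60 members 20 had their highest value in cKO a and 17 in control b, or 33.3% and 28.3%, against 18.9% and 15.1% of all genes. Control a held the highest value of 2 members, or 3.33% against 18.6% of all genes. Related lists also peaked in cKO a and control b. The summed count of 24 sodium, calcium and HCN channel genes was 66103 in cKO a, 66600 in control b and lowest, 58344, in control a. That of the 3 general neuron markers with recovered counts was 15676, 15231 and 14427 in the same order. Summed markers of cycling progenitors ran the other way, at 2984 in cKO a and 2760 in control b, the lowest of the 6, and 4996 in control a, the highest. Their part in the spread was not tested.

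**Figure D5:**
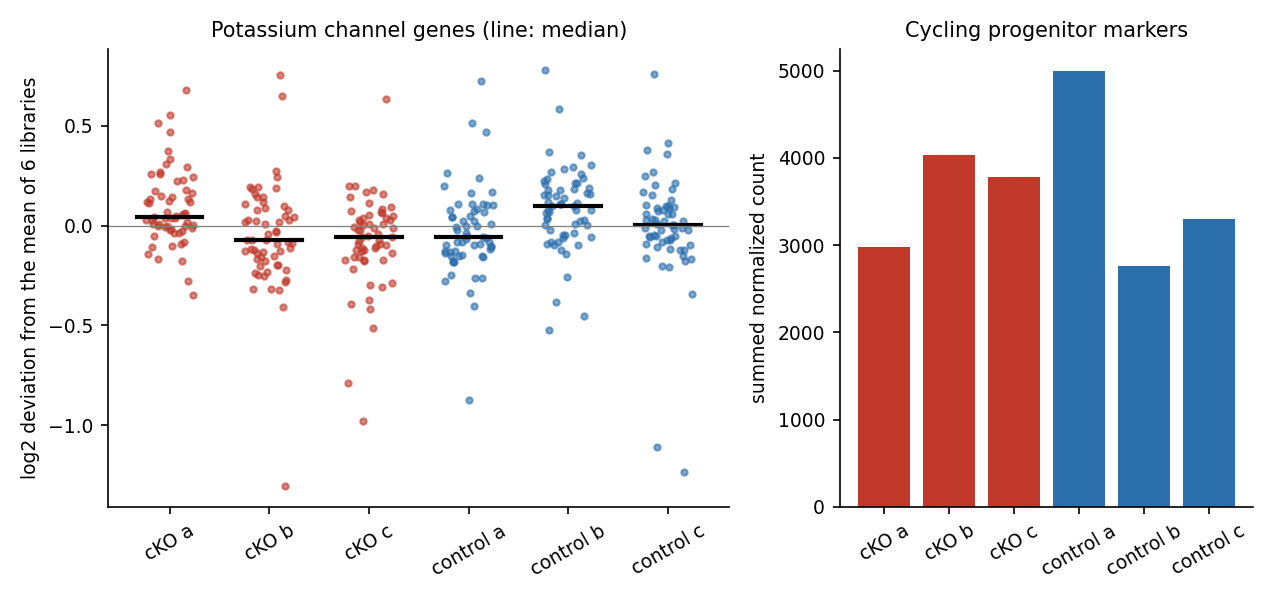
Left, the deviation of each of the 60 tested potassium channel genes from its own mean over the 6 libraries (log2 of the normalized count plus 1), with the median as a black line. Right, the summed normalized count of 6 cycling progenitor markers in the same libraries, red for cKO and blue for control. Control b and cKO a have the highest medians, 0.099 and 0.043, and the lowest marker sums.

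Genes that work with these channels were looked at as 2 lists. Among 28 further potassium channel genes, auxiliary and electrically silent subunits and the pore-forming Kcnu1, 21 were tested, 7 being lower and 14 higher in cKO libraries, none at an unadjusted limma p under 0.05 (all genes, 1.61% lower and 1.16% higher), with a median log2 fold change of 0.060. Of 24 sodium, calcium and HCN channel genes 20 were tested, 5 being lower and 15 higher, again none at that p, with a median of 0.032. The general neuron marker Syt1, the calcium sensor of transmitter release, was at 8178 ± 215 in the cKO and 8166 ± 322 in the controls.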

How the data were processed

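The deposited gene table holds, per genotype, the mean over 3 libraries of counts that the authors divided by size factors, a normalized signal per gene given to 15 significant digits. Other columns hold the authors' own fold changes and p-values and were not used. The submitters' processing notes name GRCm38.p4, TopHat 1.0.14, Bowtie2 2.1.0, HTSeq 0.6.1p1 and DESeq 1.10.1. The strand setting of the counting is not given in the sources used here. HTSeq lines that name no gene hold 31.8% of the mean counts and were left out.

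Whole read counts and size factors were recovered by searching 3 whole numbers whose scaled sum gives each mean. A single answer in both groups, with at most 60000 reads summed, was found for 26731 genes (99.5%), which hold 84.9% of the normalized counts. Size factors recomputed from these counts differed by at most 0.034%. Recovered libraries carry no sample number and are called a, b and c in falling size factor. Genotype was tested with limma 3.58.1 (voom, R 4.3.3), with the recovered size factors as library scale, on the 17056 genes whose mean reached 10 normalized counts, with Benjamini-Hochberg adjustment, after tests on simulated data. Each library pools embryos of 1 genotype, and p-values measure the spread between such pools. Alternatives were other size factors, minimum means of 0 and 50, limma-trend with pseudocounts of 1 and 10, ratios of the deposited means, and each library left out.

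Named genes were members with an unadjusted p under 0.05, members whose groups did not overlap, the most abundant member per kilobase of each class, and a list of members known in mdDA neurons or other cells of the dissection. Some of them are not reported singly here. The members and lists were chosen with earlier results of these data known. Kcnj2, Kcnj16, Kcnk5, Kcnk12 and the members under the minimum were named after their values were seen. Positions, exon lengths and coding sequences came from GENCODE vM21, and promoters from RefSeq.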

Additional observations from a re-analysis of the deposited data

How the results depend on the processing

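The count of 5 channel genes with an unadjusted p under 0.05 and a lower level in the cKO stayed within 1.5 times that number under all other size factors, minimum means and limma-trend settings. It ranged from 2 to 6 when single libraries were left out, and the count of higher genes from 0 to 1. No setting gave a channel gene an adjusted p under 0.05. Over all genes, 473 had an unadjusted p under 0.05 at a minimum mean of 10, 976 with no minimum and 347 at 50. The summed Kir ratio ranged from 0.879 to 0.927 without single libraries. Without single libraries the log2 fold change of Kcnd2 ranged from -0.090 to 0.14, that of Kcnd3 from -0.061 to 0.020 and that of Kcnj6 from -0.14 to 0.19. The cause of these changes was not tested. No paired analysis was possible because the recovered libraries carry no replicate number. Members with few reads, such as Kcnk5 and Kcnk12, had wide intervals, so a difference of the size seen in Kcnq5 was not detectable there.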
